A study of Mus musculus with 12 samples.

Results

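The gene set described here holds 36 genes of the amino acid response, of serine, one-carbon and proline synthesis, and of cytosolic tRNA charging. The set comprises 8 response factors and effectors, 9 enzymes and 19 synthetase genes. It was chosen by symbol and not by a cut on measured values, though earlier results of these data were known. All 36 were among the 25189 genes of the deposited count table, and 34 were among the 13196 genes with enough reads to be tested. Atf5 and Chac1 had too few reads for the test.

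RNA sequencing was performed on 12 libraries of regulatory T (Treg) cells that were sorted from the spleens of female mice aged 4 weeks, 4 libraries for each of 3 groups. WT cells are labelled Foxp3RFP. Foxp3-deficient cells are labelled Foxp3∆EGFPiCre, and the double-deficient cells Foxp3∆EGFPiCreRictor∆/∆. Mice are given as Foxp3∆EGFPiCre/RFPR26YFP and as Foxp3∆EGFPiCre/+Rictor∆/∆R26YFP, and cells were sorted as CD4+RFP+ or CD4+YFP+. As written, both mouse genotypes carry 1 Foxp3∆EGFPiCre allele beside another Foxp3 allele, so these hosts were not without Foxp3. The Cre is carried by the Foxp3 allele itself. The labels do not tie each library by name to one of the 2 mouse genotypes. As written, only the first genotype carries RFP and only the second carries Rictor∆/∆. Read so, WT and Foxp3-deficient cells came from the first host and double-deficient cells from the second. Differences between the hosts then cannot be told apart from Rictor loss in either double-deficient comparison. Nor do the labels say whether WT and Foxp3-deficient libraries came from the same mice. Where they did, p-values measure only the spread between libraries.

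Cells short of an amino acid accumulate uncharged tRNA, which activates the kinase GCN2 (gene Eif2ak4). GCN2 phosphorylates eIF2, general translation falls, and translation of the transcription factor ATF4 rises. ATF4 raises transcription of genes for amino acid synthesis, uptake and tRNA charging, among them Asns, Trib3, Phgdh, Mthfd2 and many synthetases. Much of this regulation acts on ATF4 protein, which RNA sequencing does not measure. mTORC1, the other mTOR complex, is also known to act on ATF4, whereas Rictor is the defining subunit of mTORC2.

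ATF4 bound to a C/EBP partner recognises a composite element, searched here as TGATGNAA on both strands in the 250 bases before each RefSeq gene start. RefSeq windows on build GRCm38.p6 were at hand for 29 of the 36 genes, as 31 windows. Cars, Hars, Lars, Nars, Rars, Vars and Wars had none. The motif was found in 6 of the 31 windows (19.4%), against 3.45% of all 32851 windows of the same length. Members were listed in part as ATF4 targets, so this share is not an independent finding about the set. The palindromic CRE motif TGACGTCA was found in 0 of the 31 windows, against 1.55% of all windows, and the E-box CACGTG in 4 (12.9%), against 6.02%. No match of one motif overlapped a match of another in these windows. Of the 6 matches, 5 are printed to show how the element reads in these genes, and the other is not reported here. Each sequence is written 5′ to 3′ along the gene's strand, with the match in capitals; capitals that begin with TT are the element read on the opposite strand.
Asns, chr6:7693214-7693243, minus strand: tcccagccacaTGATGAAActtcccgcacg
Chac1, chr2:119351038-119351067, plus strand: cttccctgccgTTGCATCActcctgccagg
Pycr1, chr11:120643833-120643862, minus strand: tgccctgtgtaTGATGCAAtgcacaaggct
Gars, chr6:55037960-55037989, plus strand: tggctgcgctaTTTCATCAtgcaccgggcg
Tars, chr15:11399659-11399684, minus strand: caggagtcccgTTGCATCAgctggtt
The element lay 15 bases before the start in Tars, 23 in Asns, 30 in Gars, 103 in Pycr1 and 193 in Chac1. A match is a description of these letters and not a measured binding site.

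Libraries held 15769737 to 26114044 reads assigned to genes. Foxp3 was at 556 to 705 CPM (reads of the gene relative to all reads in genes, scaled by the TMM method) in WT libraries, 87.9 to 142 in those of Foxp3-deficient cells and 91.8 to 122 in double-deficient ones, in the order that the labels give. Rictor was at 133 to 168 CPM in WT libraries, 163 to 229 in those of Foxp3-deficient cells and 130.1 to 157 in double-deficient ones. A total per gene does not resolve which part of Rictor was deleted, so it does not check that label. The Treg and CD4 T cell markers Cd3e, Cd4, Foxp3, Il2ra, Ctla4 and Ikzf2 summed to 3687 to 3931 CPM in WT libraries, 2601 to 3102 in those of Foxp3-deficient cells and 2663 to 2981 in double-deficient ones, and all 6 had reads in each group. Foxp3 is 1 of these 6 markers. Double-deficient libraries had fewer reads outside genes than the other groups (4.63 to 5.47%, against 6.22 to 9.27%) and more reads without a unique alignment (31.1 to 33.1%, against 23.0 to 29.5%). Both differences from Foxp3-deficient libraries had p = 0.0286 by exact two-sided permutation test, the smallest p that 4 against 4 allows, and adjusted p = 0.0490 over 12 tests. Markers of plasma cells (Sdc1, Jchain, Prdm1 and Derl3) summed to 37.6 to 58.3 CPM in WT libraries, 19.8 to 32.3 in those of Foxp3-deficient cells and 50.3 to 58.4 in double-deficient ones, and those of B cells to 1257 to 1484, 671 to 833 and 773 to 940. Jchain, singled out after its values were seen, was at 0.220 to 3.12, 0.325 to 1.90 and 7.62 to 13.6 CPM in the same order. At an adjusted p under 0.05 by edgeR, 3 of the 4 plasma cell markers were higher in double-deficient against Foxp3-deficient cells. That is 75%, where 27.2% of all genes passed. Against WT, 2 were higher (50%, where 32.6% of all genes passed). The part of the read shares and of these other cells in the results was not tested. In such bulk samples, fewer cells of a type and less RNA per cell cannot be told apart.

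The first comparison asked what loss of Foxp3 did to these genes. Of the 34 genes tested, 1 passed the test in Foxp3-deficient against WT cells (2.94%), Vars, which was lower. In the whole table, 13.7% of genes passed, 6.99% higher and 6.74% lower. No member was higher by the quasi-likelihood test of edgeR (Benjamini-Hochberg adjusted), by DESeq2 or by limma-voom, and 1 member, Gars, was higher at an unadjusted p under 0.05. The median log2 fold change was 0.018 over the 34 members and 0.00045 over all genes.

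The second comparison asked what loss of Rictor, together with any difference between the hosts, added in Foxp3-deficient cells. Here 9 of the 34 genes (26.5%) passed, against 27.2% of all genes: 6 were higher, where 13.9% of all genes were, and 3 were lower, where 13.3% were. Trib3, Dars, Rars, Wars, Farsb and Shmt2 were higher, and Cars, Iars and Mthfd2 lower. Against WT cells, 10 members passed in double-deficient cells (29.4%, against 32.6% of all genes). Of these 10, 6 were higher, where 15.8% of all genes were: Trib3, Rars, Dars, Farsb, Shmt2 and Farsa. The 4 lower genes, where 16.8% of all genes were lower, were Vars, Cars, Iars and Aldh18a1. Both shares of members were close to the background. The median over the members was 0.0018 on the log2 scale in double-deficient against Foxp3-deficient cells and 0.012 against WT, where all genes had medians of -0.025 and -0.026. These 2 comparisons share the double-deficient libraries, and both comparisons with WT share the WT libraries, so they are not independent of each other.

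**Figure D1:**
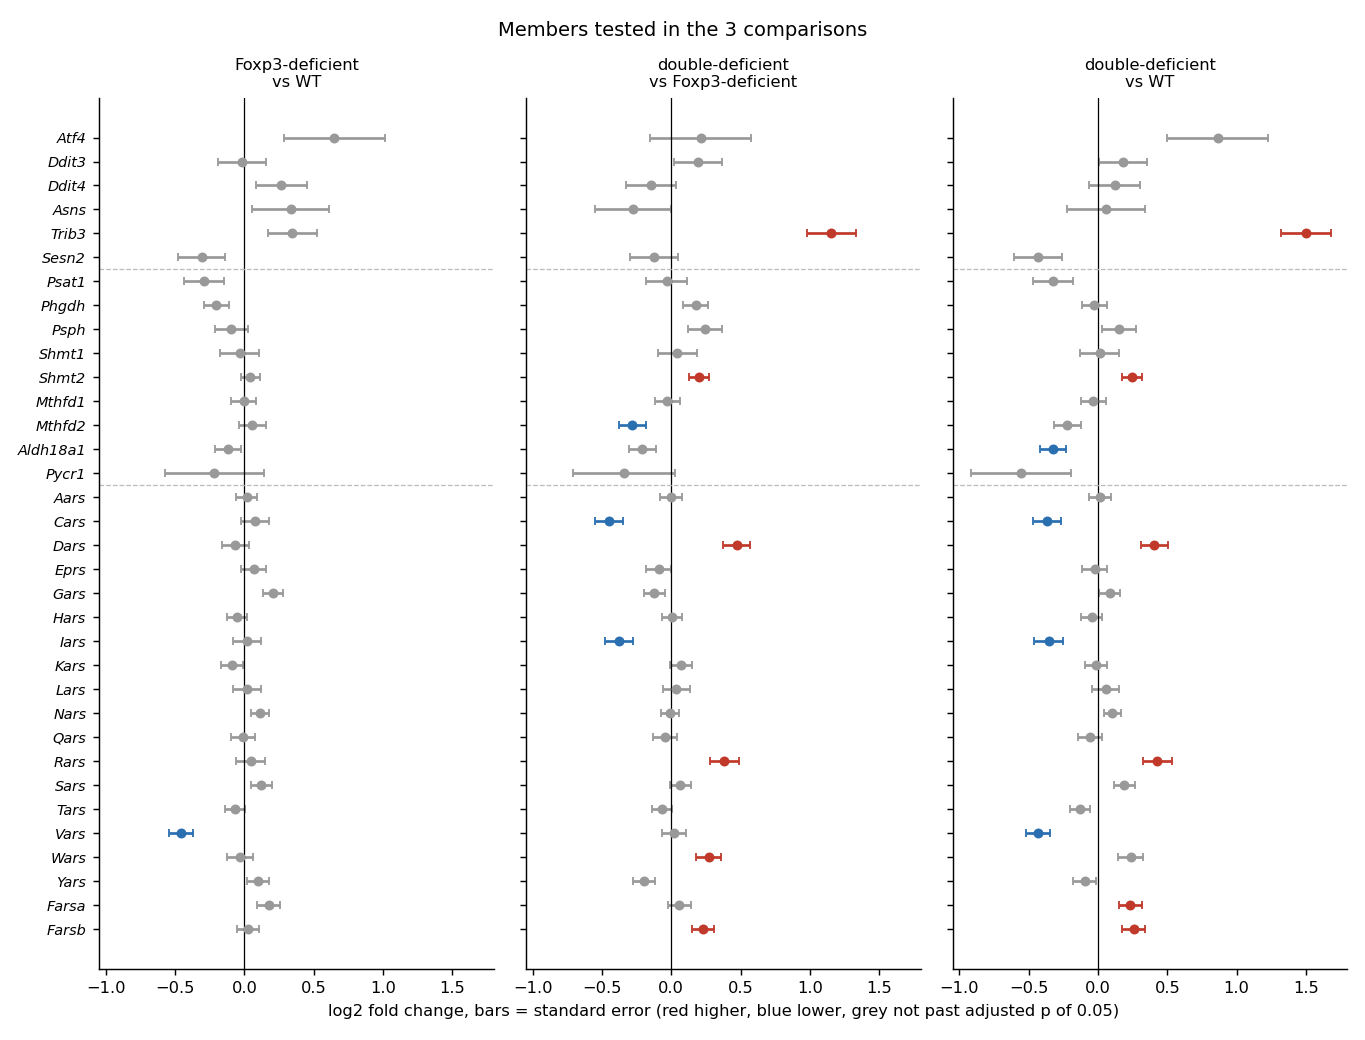
Log2 fold change of each of the 34 tested genes (rows, grouped as response genes, enzymes and synthetases) in the 3 comparisons, with bars of 1 standard error from the edgeR fit. Red and blue points passed the adjusted test (higher or lower), 1 in the left panel, 9 in the middle and 10 in the right; Trib3 has the largest change among them.

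Among the response factors and effectors, Trib3 was the only one of 6 tested genes to pass in any of the 3 comparisons. Trib3 (ENSMUSG00000032715.9, chr2:152337422-152344032 on GRCm38, minus strand) encodes a pseudokinase that ATF4 induces and that binds AKT and ATF4 itself. It was at 9.14, 6.96, 8.30 and 8.68 CPM in the WT libraries (replicates 1, 3, 4 and 5), and at 11.6, 7.79, 10.9 and 11.7 CPM in the Foxp3-deficient ones (replicates 1, 3, 4 and 5). In the double-deficient libraries (replicates 2, 3, 4 and 5) it was at 19.1, 30.9, 23.0 and 20.8 CPM. Every double-deficient library lay above all 8 others, while the WT and Foxp3-deficient libraries overlapped. Trib3 rose 2.23-fold in double-deficient over Foxp3-deficient cells, a log2 fold change of 1.16 (SE 0.18, adjusted p = 0.000546 by edgeR), and 2.83-fold over WT (1.50, SE 0.18, adjusted p = 1.95e-05). In Foxp3-deficient against WT cells its change was 0.35 (SE 0.18, adjusted p = 0.243). Both calls held under all 24 alternative settings, between 1.01 and 1.30 against Foxp3-deficient cells and between 1.35 and 1.65 against WT.

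Atf4 itself (chr15:80255184-80257541) was at 109, 223, 132 and 187 CPM in WT libraries, and at 131, 478, 191 and 222 CPM in Foxp3-deficient ones. Double-deficient libraries had 302, 237, 313 and 333 CPM. All 4 double-deficient libraries were above the 4 WT libraries, and Foxp3-deficient replicate 3 was the highest of all 12. The group means were 163 ± 51.8, 256 ± 153 and 296 ± 41.6 CPM (SD, n = 4 each). Atf4 did not pass in the fit of all libraries (0.86, SE 0.37, adjusted p = 0.0948 for double-deficient against WT). Foxp3-deficient replicate 3 decided that call: without it, the change over WT was 0.86 with adjusted p = 0.0112, and that over Foxp3-deficient cells moved from 0.21 (adjusted p = 0.690) to 0.71 (adjusted p = 0.0441). A fit of only the WT and double-deficient libraries also called Atf4 (0.86, adjusted p = 0.0145).

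The same library stood apart in other genes of the pathway. Ppp1r15a, whose product GADD34 targets a phosphatase to eIF2, was at 424, 1314, 634 and 972 CPM in WT libraries. It was at 861, 2970, 1098 and 1282 CPM in Foxp3-deficient libraries, where replicate 3 was again the highest. Double-deficient libraries had 1536 to 2032 CPM. Atf3, another stress-induced factor of the family, was at 23.8 CPM in Foxp3-deficient replicate 3, at 0.325 to 2.0 in the other 3 libraries of that group and at 2.79 to 12.5 in double-deficient cells. In WT libraries it was at 0.0568, 1.05, 0.294 and 0.758 CPM. Among WT libraries, replicate 3 was likewise the highest for both genes and for Atf4, but not for Ddit3. Both genes were named here after their values were seen. Neither passed the test, with adjusted p = 0.0637 for Ppp1r15a in double-deficient against WT cells.

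Ddit3, which encodes the transcription factor CHOP, was at 21.3, 19.6, 20.5 and 18.8 CPM in WT libraries, at 14.0, 28.9, 18.2 and 18.6 CPM in Foxp3-deficient ones, and at 22.4, 21.4, 25.5 and 21.6 CPM in double-deficient ones. The groups differed little beside the spread within the Foxp3-deficient libraries, of which replicate 3 was again the highest. Its change in double-deficient against Foxp3-deficient cells was 0.19 (adjusted p = 0.422), and 0.43 (adjusted p = 0.0226) without Foxp3-deficient replicate 3. Ddit3 overlaps other annotated genes, Mars on the opposite strand among them, over 10.9% of its exonic bases.

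Asns, asparagine synthetase and a classical target of ATF4, was scarce. It was at 2.89, 3.94, 3.38 and 3.24 CPM in WT libraries, at 3.14, 4.85, 4.86 and 4.12 CPM in Foxp3-deficient ones, and at 1.98, 3.65, 5.39 and 2.95 CPM in double-deficient ones. All 3 groups overlapped, and its changes were 0.33, -0.28 and 0.06 in the 3 comparisons (adjusted p = 0.511, 0.483 and 0.891). Chac1, a glutathione-degrading target of ATF4 and CHOP, had 12 reads in all 12 libraries together, 5 in WT libraries, 5 in those of Foxp3-deficient cells and 2 in double-deficient ones. It was at 0.0568, 0, 0.0367 and 0.126 CPM in WT libraries, at 0, 0, 0 and 0.217 CPM in Foxp3-deficient ones, and at 0, 0, 0 and 0.109 CPM in double-deficient ones. The 7 libraries with 0 reads allow a level of up to 0.135 to 0.184 CPM each (3 reads, counting error only), so the groups cannot be ordered. Atf5, another factor translated when eIF2 is phosphorylated, had 2 to 15 reads per library and 0.0937 to 0.676 CPM. Neither Chac1 nor Atf5 had enough reads for the test, so these counts neither show nor exclude a difference between the groups.

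Ddit4, which encodes the mTORC1 inhibitor REDD1, ranged from 25.2 to 51.1 CPM, and Sesn2, a leucine sensor upstream of mTORC1, from 13.1 to 25.4 CPM. Neither passed in the fit of all libraries. Ddit4 passed in Foxp3-deficient against WT cells only when Foxp3-deficient replicates 1 and 3 were both left out (0.57). Sesn2 was -0.44 in double-deficient against WT cells (adjusted p = 0.0636). It passed there with DESeq2 (-0.43, adjusted p = 0.0480), with a stricter filter, with only the 2 groups fitted, and without WT replicate 1, Foxp3-deficient replicate 1 or 5, or double-deficient replicate 4.

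**Figure D2:**
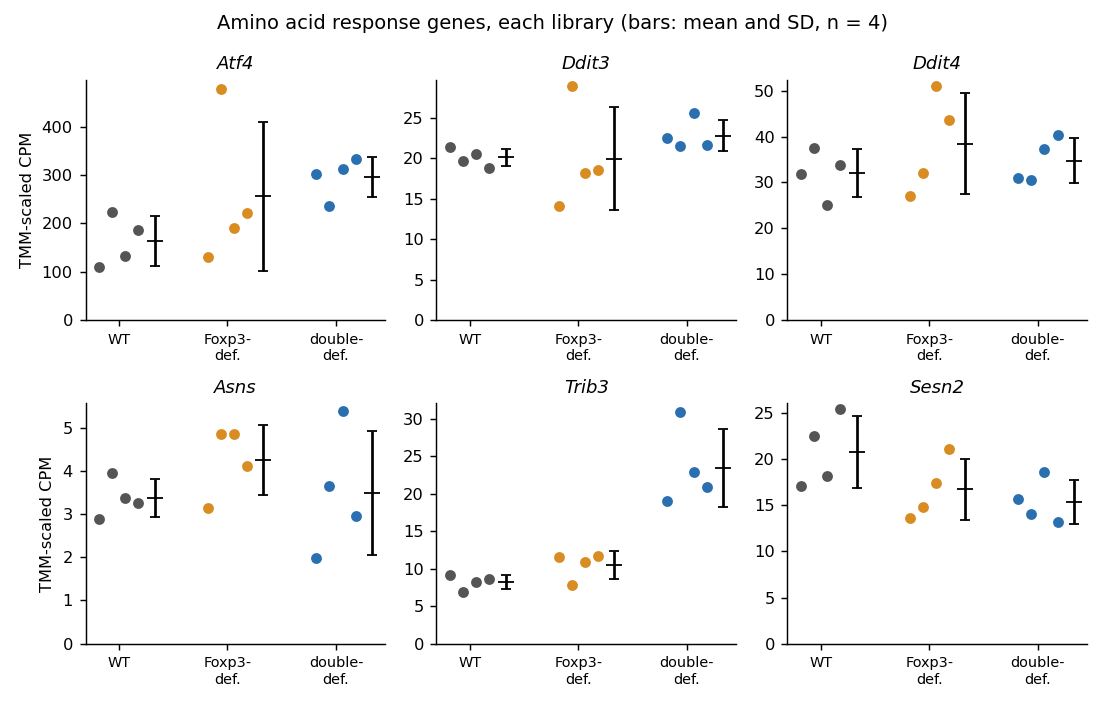
TMM-scaled CPM (y axis, from 0) of 6 response genes in each of the 12 libraries (points, 4 per group), with the mean and SD beside them. Trib3 is higher in every double-deficient library (19.1 to 30.9 CPM) than in any other (at most 11.7 CPM), and Foxp3-deficient replicate 3 is the highest point for Atf4 and Ddit3.

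The 9 enzymes build serine, glycine, one-carbon units and proline. In Foxp3-deficient against WT cells, 0 of 9 passed with edgeR, DESeq2 or limma-voom, and 1, Phgdh, was lower at an unadjusted p under 0.05. In each of the other 2 comparisons, 1 was higher and 1 lower. These are 0%, 22.2% and 22.2% of the 9, where 13.7%, 27.2% and 32.6% of all genes passed. The mitochondrial serine hydroxymethyltransferase Shmt2 (chr10:127517123-127522444), which splits serine into glycine and a one-carbon unit, rose in double-deficient cells. It was at 101, 91.2, 94.6 and 96.2 CPM in WT libraries, at 106, 97.8, 97.0 and 93.8 CPM in Foxp3-deficient ones, and at 113, 119, 112 and 110.0 CPM in double-deficient ones. The double-deficient libraries lay above the other 8, which overlapped. The change was 1.15-fold over Foxp3-deficient cells (0.20, SE 0.07, adjusted p = 0.0446) and 1.19-fold over WT (0.25, SE 0.07, adjusted p = 0.0156). The first call was lost (0.18 to 0.22) without WT replicate 3, 4 or 5, Foxp3-deficient replicate 3, 4 or 5, or any 1 double-deficient replicate, and the second (0.22) without WT replicate 3. The first was also lost with no filter, with only the 2 groups fitted and with the replicate number as a block.

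Mthfd2, the next mitochondrial enzyme of that route (chr6:83305691-83325908), moved the other way. It was at 85.4, 75.9, 85.4 and 78.0 CPM in WT libraries, at 90.6, 68.1, 93.9 and 85.4 CPM in Foxp3-deficient ones, and at 71.9, 71.0, 65.6 and 69.9 CPM in double-deficient ones. The double-deficient libraries lay below all WT libraries, and among Foxp3-deficient ones only replicate 3 lay within their range. Mthfd2 fell by 0.28 on the log2 scale against Foxp3-deficient cells (SE 0.10, edgeR adjusted p = 0.0433). Against WT the change was -0.22 (adjusted p = 0.0909), and it passed without Foxp3-deficient replicate 3 (-0.22, adjusted p = 0.0301). The call against Foxp3-deficient cells was lost (-0.29 to -0.22) when any 1 library other than Foxp3-deficient replicate 3 was left out. It was also lost with upper quartile scaling, with no filter, with only the 2 groups fitted and with the replicate number as a block.

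Aldh18a1 (chr19:40550257-40588463) makes the glutamate-derived precursor of proline. It was at 166, 169, 164 and 168 CPM in WT libraries, at 180.4, 129, 153 and 153 CPM in Foxp3-deficient ones, and at 136, 144, 137 and 116 CPM in double-deficient ones. All 4 double-deficient libraries lay below the WT libraries, and they overlapped the Foxp3-deficient ones. Aldh18a1 fell by 0.32 against WT (SE 0.09, adjusted p = 0.0171), a call that was lost without double-deficient replicate 5 (-0.26) and with the replicate number as a block. Against Foxp3-deficient cells it was -0.21 (adjusted p = 0.114), and passed without Foxp3-deficient replicate 3 (-0.28).

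Phgdh, the first enzyme of serine synthesis, was at 48.2, 55.1, 48.1 and 54.7 CPM in WT libraries, at 41.7, 47.4, 46.3 and 43.3 CPM in Foxp3-deficient ones, and at 50.2, 54.4, 48.9 and 48.6 CPM in double-deficient ones. The Foxp3-deficient libraries lay below the other 8, yet the changes of -0.20 and 0.18 did not pass (adjusted p = 0.159 and 0.152). Phgdh shares 63.1% of the 50-base words of its transcript with other annotated transcripts, the pseudogenes Gm7901, Gm9347 and Gm8341 first, so its count is uncertain. Psat1, the next enzyme, had means of 51.6 ± 4.92, 42.1 ± 9.96 and 41.2 ± 3.74 CPM (SD, n = 4 each) in WT, Foxp3-deficient and double-deficient cells. Its change in double-deficient against WT cells was -0.32 (adjusted p = 0.0958). It passed without Foxp3-deficient replicate 3 (-0.32, adjusted p = 0.0333) and with only those 2 groups fitted. In Foxp3-deficient against WT cells it passed without Foxp3-deficient replicate 5 (-0.44).

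Psph, which completes serine synthesis, had means of 41.8, 39.1 and 46.3 CPM and passed only against Foxp3-deficient cells without Foxp3-deficient replicate 5 (0.36). The cytosolic enzymes Shmt1 and Mthfd1 did not pass in any comparison, with changes between -0.03 and 0.04 for Shmt1 and between -0.04 and -0.01 for Mthfd1. Pycr1, the last enzyme of proline synthesis, had 10 to 30 reads per library, and its change of -0.56 in double-deficient against WT cells had a standard error of 0.36 (adjusted p = 0.248).

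**Figure D3:**
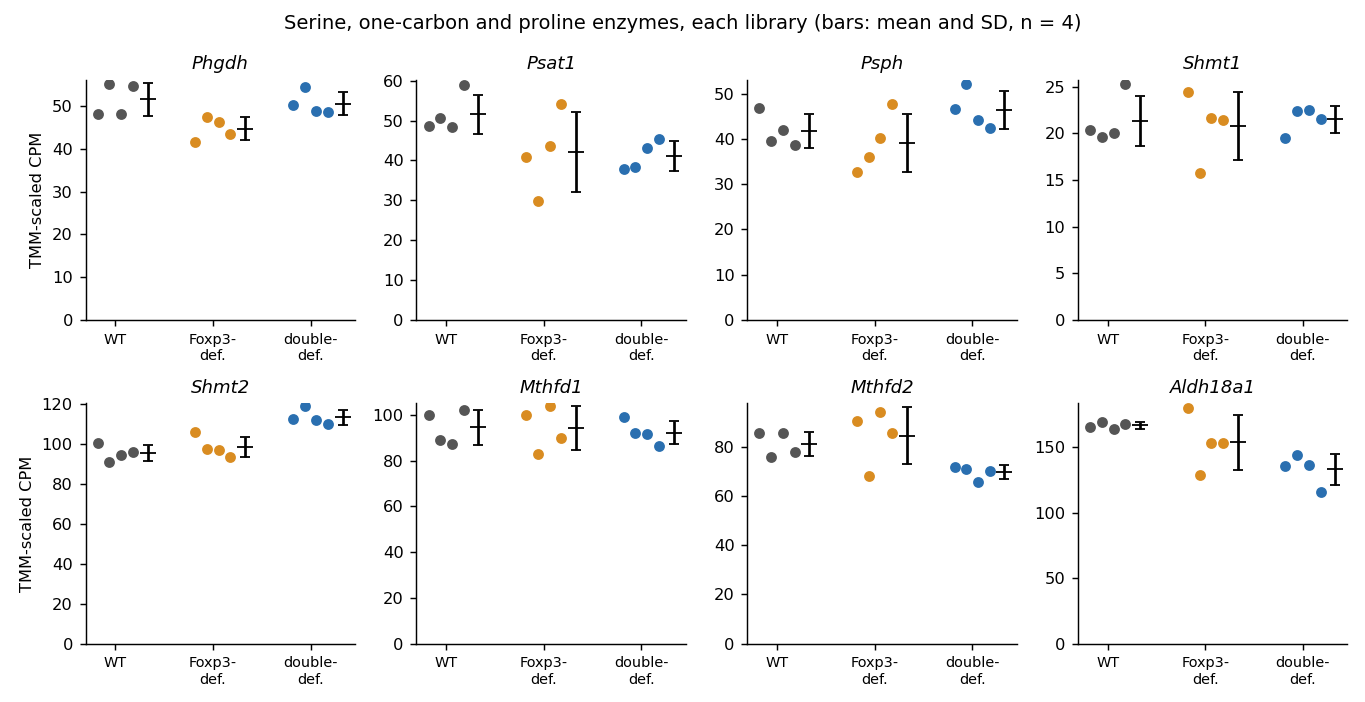
TMM-scaled CPM (y axis, from 0) of 8 enzymes of serine, one-carbon and proline synthesis in each of the 12 libraries (points, 4 per group), with the mean and SD beside them. Shmt2 is higher in the 4 double-deficient libraries (110.0 to 119 CPM) than in the other 8, and Mthfd2 there is at 65.6 to 71.9 CPM.

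Cytosolic synthetases charge each tRNA with its amino acid. Per kilobase of the longest coding transcript, the WT means ranged from 17.3 CPM per kb for Cars to 132 for Dars, with Vars second at 113. On this scale Dars was at 126 CPM per kb in Foxp3-deficient and 175 in double-deficient cells, the highest of the 19 in each group. Of the 19 genes, 1 passed in Foxp3-deficient against WT cells (lower), 6 in double-deficient against Foxp3-deficient cells (4 higher, 2 lower) and 7 in double-deficient against WT cells (4 higher, 3 lower). These are 5.26%, 31.6% and 36.8% of the 19, where 13.7%, 27.2% and 32.6% of all genes passed. The last 2 shares were close to the background in this fit, which does not correct for transcript length. Their median changes were 0.020, 0.0063 and 0.014.

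Vars (chr17:35000987-35016322), the valine enzyme, was at 493, 438, 489.8 and 456 CPM in WT libraries, at 397, 328, 345 and 297 CPM in Foxp3-deficient ones, and at 332, 363, 342 and 351 CPM in double-deficient ones. All 8 mutant libraries lay below the 4 WT libraries and overlapped each other. Vars fell by 0.46 in Foxp3-deficient cells (SE 0.09, adjusted p = 0.0015) and by 0.44 in double-deficient cells (SE 0.09, adjusted p = 0.0014) on the log2 scale. Between the 2 mutant groups the change was 0.02 (SE 0.09, adjusted p = 0.867). Both falls held under all 24 alternative settings.

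Dars (chr1:128363707-128417368), the aspartate enzyme, was at 277, 279, 276 and 317 CPM in WT libraries, at 235, 312, 258 and 293 CPM in Foxp3-deficient ones, and at 354, 389, 347 and 433 CPM in double-deficient ones. Every double-deficient library lay above the other 8, which overlapped. Dars rose 1.39-fold over Foxp3-deficient cells (0.47, SE 0.10, adjusted p = 0.0036) and 1.33-fold over WT (0.41, SE 0.10, adjusted p = 0.0057). Both calls held under all 24 alternatives. They became smaller with length and GC trends removed by the longest coding transcript, at 0.23 and 0.24.

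Rars (chr11:35808381-35834506), the arginine enzyme, was at 77.3, 86.1, 78.3 and 104 CPM in WT libraries, at 76.6, 96.1, 88.1 and 96.1 CPM in Foxp3-deficient ones, and at 112, 113, 111 and 129.9 CPM in double-deficient ones. The double-deficient libraries again lay above all others. Rars rose 1.30-fold over Foxp3-deficient cells (0.38, SE 0.11, adjusted p = 0.0166) and 1.35-fold over WT (0.43, SE 0.11, adjusted p = 0.0069). The first call was lost without double-deficient replicate 5 (0.34) and without Foxp3-deficient replicates 1 and 3 together (0.34). It was also lost with length and GC trends removed by the longest coding transcript (0.25, adjusted p = 0.0665), and with the replicate number as a block and trends removed.

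Wars (chr12:108860030-108894174), the tryptophan enzyme and a gene known to respond to interferon, was at 169, 153, 156 and 139 CPM in WT libraries, at 162, 140.3, 142 and 159 CPM in Foxp3-deficient ones, and at 186, 203, 182 and 155 CPM in double-deficient ones. Double-deficient replicate 5 lay among the libraries of the other groups. Wars rose 1.21-fold over Foxp3-deficient cells (0.27, SE 0.09, adjusted p = 0.0399). That call was lost (0.22 to 0.28) without WT replicate 3 or 4, Foxp3-deficient replicate 3 or 4, or double-deficient replicate 2, 3 or 4. It was also lost with only the 2 groups fitted and with the replicate number as a block. Against WT the change was 0.24 (adjusted p = 0.0588). It passed with DESeq2 (0.24, adjusted p = 0.0423), with only the 2 groups fitted, and without Foxp3-deficient replicate 1, Foxp3-deficient replicate 3 or double-deficient replicate 5.

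Farsa and Farsb encode the 2 subunits of the phenylalanine enzyme. Farsa (chr8:84856989-84869257) was at 100.4, 108, 90.4 and 97.8 CPM in WT libraries, at 105, 127, 104 and 111 CPM in Foxp3-deficient ones, and at 116, 109, 122 and 118 CPM in double-deficient ones. Farsb (chr1:78417975-78488897) was at 105, 112, 94.7 and 119 CPM, at 104, 107, 113 and 114 CPM, and at 135, 133, 127 and 119 CPM in the same order. Both subunits were higher in every double-deficient library than in every WT library. Farsa rose 1.17-fold over WT (0.23, SE 0.08, adjusted p = 0.0434), and that call was lost (0.19 to 0.23) without WT replicate 1, 4 or 5 or double-deficient replicate 2, 4 or 5. It was also lost with no filter, with a stricter filter and with the replicate number as a block. Farsb rose 1.19-fold over WT (0.26, SE 0.08, adjusted p = 0.0252) and 1.17-fold over Foxp3-deficient cells (0.23, SE 0.08, adjusted p = 0.0468). The call over WT was lost (0.20 to 0.25) without WT replicate 1 or 4 or double-deficient replicate 2 or 3. That over Foxp3-deficient cells was lost (0.18 to 0.25) without WT replicate 1 or 3, Foxp3-deficient replicate 1, 3 or 4, or double-deficient replicate 2, 3 or 4. Both Farsb calls were also lost with the replicate number as a block. The call over Foxp3-deficient cells was lost with no filter and with only the 2 groups fitted as well. Sgpp2, on the opposite strand, overlaps 9.47% of the exonic bases of Farsb.

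Cars (chr7:143557230-143600090), the cysteine enzyme, was at 56.3, 58.4, 52.8 and 55.6 CPM in WT libraries, at 67.0, 61.4, 59.5 and 47.5 CPM in Foxp3-deficient ones, and at 44.2, 42.5, 42.9 and 42.9 CPM in double-deficient ones. The double-deficient libraries lay close together below all others. Cars fell by 0.45 on the log2 scale against Foxp3-deficient cells (SE 0.10, adjusted p = 0.0057) and by 0.37 against WT (SE 0.10, adjusted p = 0.0110). Both Cars calls were lost with the replicate number as a block and length and GC trends removed. The call against WT was also lost with these trends removed and no block. Iars (chr13:49682100-49734267), the isoleucine enzyme, was at 97.4, 99.98, 102 and 93.9 CPM in WT libraries, at 120.5, 89.1, 97.9 and 91.2 CPM in Foxp3-deficient ones, and at 89.5, 74.7, 71.9 and 71.0 CPM in double-deficient ones. Double-deficient replicate 2 lay just above the lowest Foxp3-deficient library, and all 4 were below the WT libraries. Iars fell by 0.38 against Foxp3-deficient cells (SE 0.10, adjusted p = 0.0155) and by 0.36 against WT (SE 0.10, adjusted p = 0.0157). The first call was lost (-0.35 to -0.33) without double-deficient replicate 3, 4 or 5, and the second (-0.32) without double-deficient replicate 4 or 5. Both were lost with length and GC trends removed by the longest coding transcript (-0.23 and -0.18, adjusted p = 0.0673 and 0.107).

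**Figure D4:**
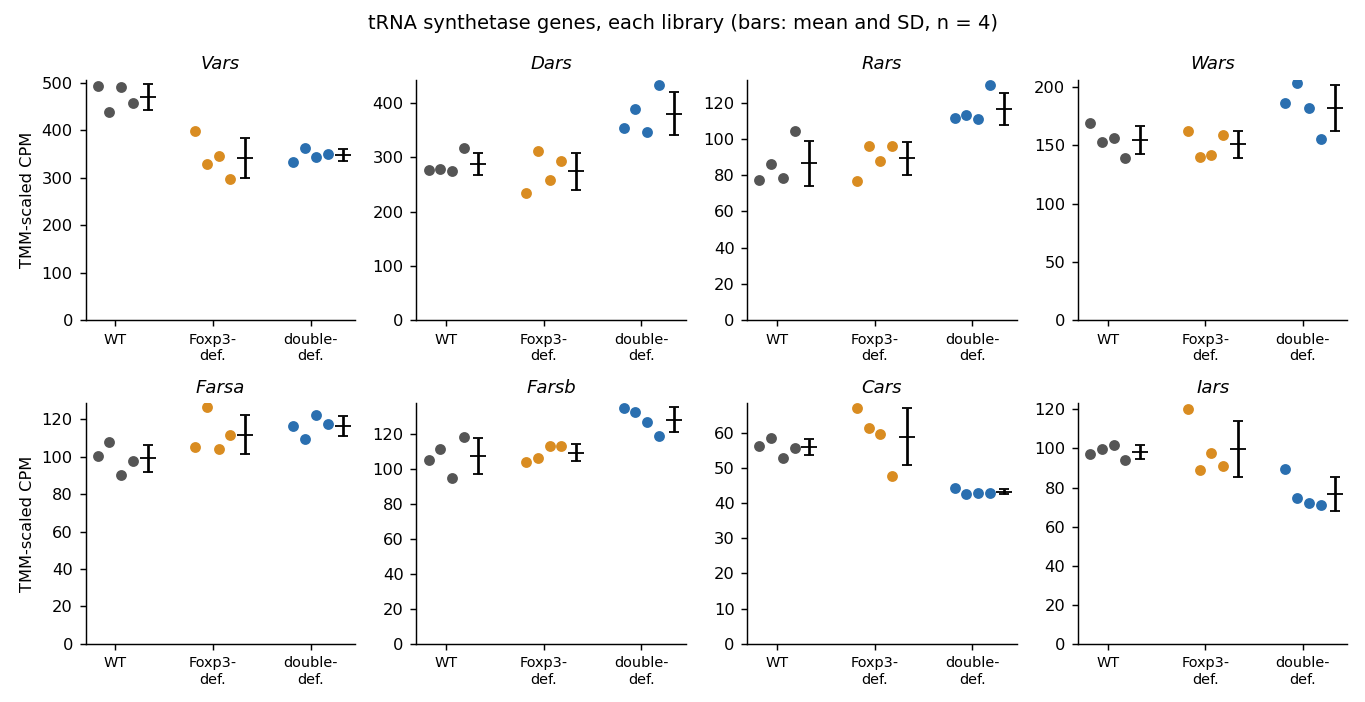
TMM-scaled CPM (y axis, from 0) of the 8 synthetase genes that passed in at least 1 comparison, in each of the 12 libraries (points, 4 per group), with the mean and SD beside them. Vars is lower in all 8 mutant libraries (297 to 397 CPM) than in WT (438 to 493 CPM), while Dars and Rars are highest and Cars lowest in the 4 double-deficient libraries.

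The other 11 synthetase genes (Aars, Eprs, Gars, Hars, Kars, Lars, Nars, Qars, Sars, Tars and Yars) did not pass in any of the 3 comparisons in the fit of all libraries. Their changes lay between -0.20 (Yars, double-deficient against Foxp3-deficient cells) and 0.21 (Gars, Foxp3-deficient against WT). Yars passed in that comparison without Foxp3-deficient replicate 3 (-0.23). Sars was 0.19 in double-deficient against WT cells (adjusted p = 0.0628) and passed with DESeq2, with only the 2 groups fitted, and without Foxp3-deficient replicate 1 or 3. Hars shares 7.97% of its exonic bases with Hars2 on the opposite strand.

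Synthetases fall into 2 structural classes. In double-deficient against Foxp3-deficient cells, where 13.9% of all genes were higher and 13.3% lower, 2 of the 8 class I genes were higher and 2 lower, and of the 10 class II genes, 2 were higher and 0 lower, with 0 lower also at an unadjusted p under 0.05, by DESeq2 and by limma-voom. A subset of synthetases is held in the multisynthetase complex. Among the 7 members of the set that belong to it, 2 were higher (Dars and Rars) and 1 lower (Iars), and among the 12 outside it 2 were higher and 1 lower. Whether the classes differed was not tested. Eprs, whose product joins a class I and a class II enzyme, was left out of the class counts.

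The changes of the synthetases were read against transcript length. In double-deficient against Foxp3-deficient cells, Spearman's rho between log2 fold change and the length of the longest coding transcript was -0.493 across the 19 genes and -0.347 across the 13074 tested genes with a length. The genes share the same 12 libraries and are not independent. Dars, Rars and Farsb, which rose, have transcripts of 2.17, 2.11 and 2.04 kb, and Iars, which fell, one of 4.43 kb. Wars, which also rose, has one of 2.83 kb, and Cars, which fell most, one of 3.22 kb. Farsa, Hars and Kars, at 1.83, 1.99 and 2.19 kb, did not pass there. Aars, at 5.75 kb the longest, changed by -0.0027. The same rho was -0.565 in double-deficient against WT cells and -0.119 in Foxp3-deficient against WT cells. With the trends in exonic length and GC content removed from each library, rho over the 19 genes was 0.0228, -0.307 and -0.344 in double-deficient against Foxp3-deficient, double-deficient against WT and Foxp3-deficient against WT cells. Over the 13074 genes, rho after this removal was -0.144, -0.0891 and 0.0495 in that order, so part of the relation to length remained. The shift of reads by length moves with the double-deficient group as the read shares above do. Its part in the fold changes was not tested further.

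With these trends removed, 2, 8 and 13 of the 34 members passed in Foxp3-deficient against WT, double-deficient against Foxp3-deficient and double-deficient against WT cells, where 16.7%, 20.5% and 31.9% of all genes did. Of the 19 synthetases, 2, 6 and 10 passed: 1 higher and 1 lower, 4 higher and 2 lower, and 8 higher and 2 lower. Their medians were 0.073, 0.086 and 0.14, where all genes had 0.053, -0.024 and 0.029. The last share of synthetases was thus above the background, unlike in the main fit. Trib3 (1.04 and 1.46), Dars (0.33 and 0.32), Rars (0.29 and 0.41) and Vars against WT (-0.49 and -0.34) passed as before. Farsb was lost in both comparisons, Shmt2 against Foxp3-deficient cells and Cars against WT (-0.22, adjusted p = 0.0886). Gars was gained in Foxp3-deficient against WT cells (0.30), Aars in both double-deficient comparisons (0.25 and 0.24), and Eprs (0.31), Nars (0.16), Sars (0.29) and Wars (0.28) in double-deficient against WT cells. Several of these calls depend on the length that is used. The exonic bases of Eprs add up to 18102, its longest coding transcript has 4906, and with the latter Eprs did not pass (0.16, adjusted p = 0.108). By that length Nars (0.14, adjusted p = 0.0679) and Farsa (0.20, adjusted p = 0.0524) did not pass against WT either, nor did Iars in either comparison or Rars against Foxp3-deficient cells. Cars passed against WT by that length (-0.29, adjusted p = 0.0317), and Farsa in Foxp3-deficient against WT cells (0.23, adjusted p = 0.0490). Exosc6 overlaps Aars on the same strand, and 15.1% of the exonic bases of Aars lie in other genes.

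**Figure D5:**
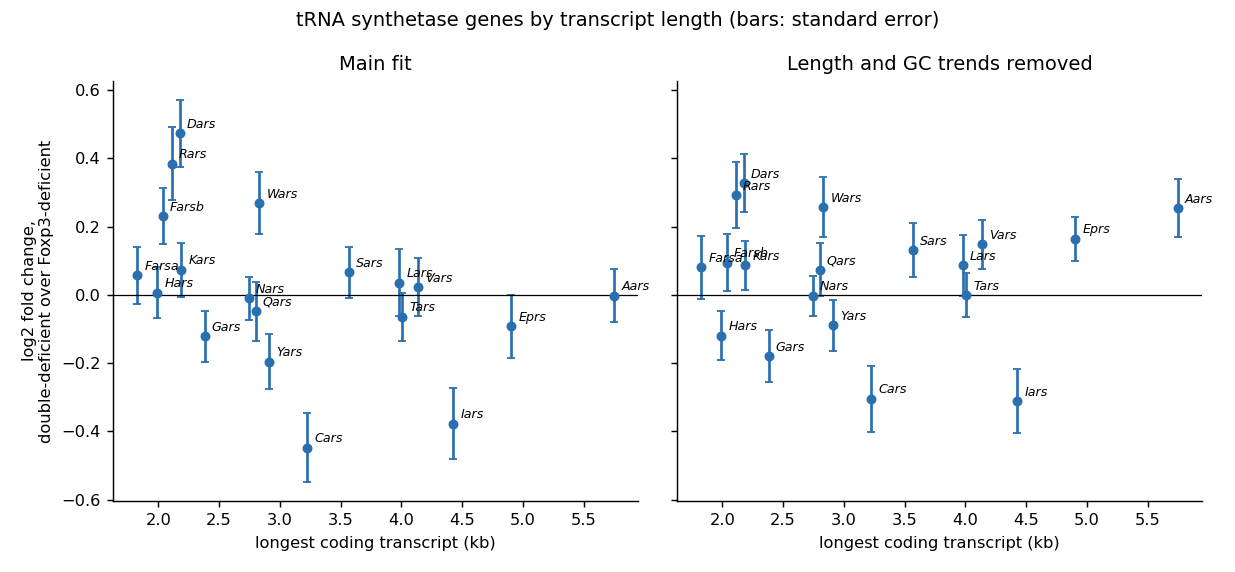
Log2 fold change in double-deficient over Foxp3-deficient cells (y axis, bars of 1 standard error) of the 19 synthetase genes against the length of their longest coding transcript in kb (x axis), in the main fit (left) and after the length and GC trends were removed from every library (right, by exonic length). Spearman's rho is -0.493 on the left and 0.0228 on the right; Cars and Iars are low and Dars, Rars and Wars high in both panels.

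The 6 genes with the TGATGNAA element were read beside the others. Of these 6, 5 were tested, and 0 passed in any of the 3 comparisons with edgeR, DESeq2 or limma-voom. At an unadjusted p under 0.05 there was 1 in Foxp3-deficient against WT cells (Gars) and 0 in the other comparisons. Of all genes, 13.7%, 27.2% and 32.6% passed, and of the 22 tested members with a window and no match, 0, 6 and 7 did. Whether the members with and without a match differed was not tested. With length and GC trends removed by exonic length, 1 of the 5 was higher and 0 lower in each comparison. Without that removal the median change of the 5 was -0.12 in double-deficient against Foxp3-deficient cells and slightly above 0 in the other comparisons. The medians of the 22 were 0.0071 in Foxp3-deficient against WT cells, 0.051 in double-deficient against Foxp3-deficient cells and -0.0019 in double-deficient against WT cells. Trib3, the gene with the largest change, had no match in the 250 bases searched.

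Genes upstream in the pathway moved in both directions, as did genes of the whole table. Of all genes, 13.7%, 27.2% and 32.6% passed in the 3 comparisons. Of 14 tested genes for eIF2 kinases, eIF2B and eIF2 phosphatase subunits, 0 passed in Foxp3-deficient against WT cells with edgeR, where 2 were higher and 2 lower at an unadjusted p under 0.05, 1 of each passed with DESeq2, and 1 was lower with limma-voom. With length and GC trends removed, 4 were higher there and 0 lower. In double-deficient cells 1 was higher and 4 lower against Foxp3-deficient cells (35.7%), and 3 were higher and 3 lower against WT (42.9%). With trends removed these counts were 1 higher and 1 lower, and 4 higher and 2 lower. The interferon-induced kinase gene Eif2ak2 fell by 0.90 on the log2 scale (SE 0.26, adjusted p = 0.0196) against Foxp3-deficient cells, and its change against WT was -1.62 (SE 0.26, adjusted p = 0.000333). Eif2s1, which encodes the phosphorylated subunit of eIF2, rose by 0.43 and 0.44 (adjusted p = 0.0036 and 0.0019). Eif2ak3 and Gcn1l1, for the kinase PERK and the activator of GCN2, fell by 0.39 and 0.37 against Foxp3-deficient cells (adjusted p = 0.0228 and 0.0162), but neither passed with trends removed (-0.29 with adjusted p = 0.0698, and 0.03 with adjusted p = 0.841). The call of Ppp1r15b, a phosphatase subunit named after its values were seen, was lost there as well (-0.22, adjusted p = 0.186). Eif2ak4, the GCN2 gene, was added after its values were seen. It fell by 0.49 on the log2 scale against WT (SE 0.17, adjusted p = 0.0429), which did not pass with length and GC trends removed (-0.30, adjusted p = 0.183). Eif2b2 (0.41) rose and Impact (-0.61), an inhibitor of GCN2 activation, fell against WT.

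Other genes linked to ATF4 gave 1 higher and 1 lower of 15 tested in Foxp3-deficient against WT cells. The amino acid transporter genes Slc38a2 rose by 0.48 and Slc7a5 fell by 0.36 (adjusted p = 0.0122 and 0.0135). Against Foxp3-deficient cells, 1 rose and 1 fell in double-deficient cells: Gpt2, a mitochondrial alanine transaminase, rose by 1.25 (SE 0.28, adjusted p = 0.0053), and Xpot, the tRNA exporter, fell by 0.32 (adjusted p = 0.0497). Against WT, Gpt2 (0.76) rose, and Jdp2 (-0.91), Slc1a4 (-1.47) and Xpot (-0.32) fell. Xpot did not pass in either comparison with length and GC trends removed (-0.24 and -0.22, adjusted p = 0.0962 and 0.106). Of the 15 genes, 13.3%, 13.3% and 26.7% passed in the 3 comparisons, against 13.7%, 27.2% and 32.6% of all genes. Their median change was 0.0059, 0.059 and -0.059.

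Of the 5 genes for the methionine enzyme and the non-synthetase parts of the multisynthetase complex and its relatives, 2 were higher and 1 lower in double-deficient against Foxp3-deficient cells. That is 60% of the 5, where 27.2% of all genes passed. The scaffold gene Aimp1 was at 36.6, 35.8, 33.7 and 37.7 CPM in WT, at 24.0, 39.6, 34.6 and 36.9 CPM in Foxp3-deficient, and at 46.5, 57.0, 56.6 and 66.0 CPM in double-deficient libraries. It rose by 0.74 over Foxp3-deficient cells (SE 0.14, adjusted p = 0.0022) and by 0.65 over WT (adjusted p = 0.0028). Eef1e1, the scaffold component AIMP3, rose by 0.84 and 0.64 (adjusted p = 0.0104 and 0.0289). Mars, the methionine enzyme, fell by 0.29 against Foxp3-deficient cells (adjusted p = 0.0246). Among 17 mitochondrial synthetase genes, 0 passed in Foxp3-deficient against WT cells with edgeR or limma-voom, where DESeq2 called 1 lower and 3 higher and 2 lower had an unadjusted p under 0.05. In double-deficient cells Aars2 fell by 0.48 against Foxp3-deficient cells (adjusted p = 0.0303), and Yars2 (0.48) and Mars2 (0.30) rose against WT. Aars2 did not pass with length and GC trends removed (-0.39, adjusted p = 0.0532). Of the 17, 0%, 5.88% and 11.8% passed with edgeR in the 3 comparisons, against 13.7%, 27.2% and 32.6% of all genes.

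Of 9 other proline, glutamate and aspartate genes, 4 were higher in double-deficient against Foxp3-deficient cells and 0 lower (44.4%, against 27.2% of all genes). The 0 held with DESeq2 and limma-voom, and 1 was lower at an unadjusted p under 0.05. Among them were Pycrl (0.64, adjusted p = 0.0086), which like Pycr1 completes proline synthesis, and Prodh (1.02, adjusted p = 0.0086), which degrades proline. Prodh also fell by 1.41 in Foxp3-deficient against WT cells (adjusted p = 0.000874). Of 19 other folate, glycine and methionine cycle genes, 0 were higher and 2 lower in Foxp3-deficient against WT cells, Ppat (-0.53) and Gcsh (-0.66). The 0 held with DESeq2 and limma-voom, and 2 were higher at an unadjusted p under 0.05. In double-deficient cells 3 were higher and 2 lower against Foxp3-deficient cells. Among them the purine synthesis genes Paics (0.43, adjusted p = 0.000997) and Ppat (0.43, adjusted p = 0.0054) rose, and Pfas (-0.999, adjusted p = 0.0069) fell. Against WT 3 were higher and 4 lower, with Paics (0.51) and Gldc (2.95) higher and Pfas (-1.06) and Atic (-0.54) lower. Atic did not pass with length and GC trends removed (-0.34, adjusted p = 0.0831).

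Of 4 other sensors of amino acids for mTORC1, Sesn1 fell in Foxp3-deficient cells (-0.41, adjusted p = 0.0131), Sesn3 fell in double-deficient against Foxp3-deficient cells (-0.50, adjusted p = 0.0209), and Gatsl3 (-0.44) and Sesn1 (-0.29) fell in double-deficient against WT cells. With length and GC trends removed, Sesn3 (-0.24, adjusted p = 0.188) and Sesn1 against WT in double-deficient cells (-0.22, adjusted p = 0.107) did not pass. Among 10 genes from other arms of the unfolded protein response, Xbp1 fell in Foxp3-deficient cells (-0.27, adjusted p = 0.0284) and Edem1 in double-deficient against Foxp3-deficient cells (-0.41, adjusted p = 0.0064). Xbp1 did not pass with trends removed (-0.20, adjusted p = 0.0965). Against WT, the chaperone gene Hspa5 rose (0.71, adjusted p = 0.0126), and Herpud1 (-0.35) and Edem1 (-0.53) fell. Of 6 genes upstream of biosynthetic programs, Nfe2l2, which encodes NRF2, rose in Foxp3-deficient (0.69, adjusted p = 9.29e-05) and in double-deficient cells (0.55, adjusted p = 0.000522) over WT. In double-deficient against Foxp3-deficient cells 0 of the 6 passed with edgeR, DESeq2 or limma-voom, and 1 was higher at an unadjusted p under 0.05. In the 3 comparisons 25%, 25% and 50% of the 4 sensors passed. The shares were 10%, 10% and 30% of the 10 unfolded protein response genes and 16.7%, 0% and 16.7% of the 6. Of all genes, 13.7%, 27.2% and 32.6% passed.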

How the data were processed

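The authors deposited raw counts, whole numbers of reads for every gene in every library, not normalized. STAR 2.5.1b aligned the reads to GRCm38 (mm10) and HTSeq counted them, per the submitters' processing notes. The SMART-Seq v4 kit gave the cDNA, per the labels. No source used here gives the HTSeq version or its strand setting, so reads of overlapping genes on opposite strands may not be separated. Genes were filtered with filterByExpr, scaled by TMM and tested by the robust quasi-likelihood F test of edgeR 4.0.16 (R 4.3.3), with all 12 libraries in 1 fit and no covariates. A gene passed at a Benjamini-Hochberg adjusted p under 0.05 over all 13196 genes. The biological coefficient of variation was 17.4%. Read shares were compared by exact permutation tests. Lengths came from GENCODE M21 and promoter windows from RefSeq (GRCm38.p6). Of the 25189 genes, 97.5% were matched to that annotation. The 3 HTSeq summary counts stayed out of library sizes and tests.

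Other settings were RLE and upper quartile scaling, no filter or a stricter filter (a mean of 5 CPM, and 1 CPM in 4 libraries), limma-voom (limma 3.58.1), DESeq2 1.42.0, a block for the replicate number, a fit restricted to the compared pair of groups, removal of length and GC trends (splines with 5 degrees of freedom), each library left out, and Foxp3-deficient replicates 1 and 3 left out. Length by the longest coding transcript was added after seeing the data. The fits were tested on simulated data. The members, gene lists and settings were chosen with earlier results of these data known. Values in every library are given for members that passed in any comparison and for Atf4, Ddit3, Asns, Chac1, Trib3, Phgdh and Mthfd2. Of each other list, up to 4 genes per comparison that passed, those with the smallest adjusted p, are named. Some items are not reported here. Lists were marker genes of Treg and CD4 T, B, plasma, myeloid, dendritic, CD8 T and NK, and erythroid cells, and the pathway lists of the results. Myeloid markers summed to 1.49 to 3.71 CPM in all libraries, dendritic ones to 2.15 to 8.04, CD8 T and NK ones to 23.3 to 34.0, and erythroid ones to at most 1.48.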

Additional observations from a re-analysis of the deposited data

Results flagged for a closer look

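Among 108 groups of 4 libraries (36 genes in 3 groups), 5 held a library that stood far from the other 3, and chance alone gives about 1 in 20 groups. Dars was at 317 CPM in WT replicate 5, where the other WT libraries were at 276 to 279. Shmt1 was at 25.3 CPM in the same library, with the others at 19.6 to 20.3. Rars was at 129.9 CPM in double-deficient replicate 5, with the others at 111 to 113, and the call of Rars over Foxp3-deficient cells was lost without that library. Chac1 was at 0.217 CPM in Foxp3-deficient replicate 5 and at 0.109 CPM in double-deficient replicate 5, with 5 and 2 reads, and had 0 reads in the other libraries of both groups.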

How the results depend on the processing

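Trib3 and Dars in both double-deficient comparisons, Rars in double-deficient against WT cells, and Vars against WT in both mutant groups passed under all 24 alternatives. Of 2442 values of single members under alternatives, 145 changed their side of the threshold or reversed. The change of Aars in double-deficient against Foxp3-deficient cells turned from -0.0027 to 0.25 with length and GC trends removed, and to 0.27 with the coding transcript as length. That of Eprs in double-deficient against WT cells turned from -0.03 to 0.31, and to 0.30 with the block as well. Among members below the threshold in both fits, the sign differed in 157 values.

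In Foxp3-deficient against WT cells, 1 member was higher with trends removed, 2 with the coding transcript as length and 1 without Foxp3-deficient replicates 1 and 3. The members' median was 0.064 with trends removed, and -0.028 to 0.043 with single libraries left out, where 1 to 2 members were lower. In double-deficient against Foxp3-deficient cells, fitting only these groups left 2382 genes in all and 3 higher members, and the fit without Foxp3-deficient replicates 1 and 3 also 3. The median was 0.059 with trends removed. Leaving out single libraries gave 2153 to 4430 genes in all, 3 to 6 higher and 1 to 5 lower members. In double-deficient against WT cells, 7 members were lower with only these groups fitted and 7 without Foxp3-deficient replicates 1 and 3, and 10 were higher with trends removed. The median was 0.071 with trends removed and 0.063 with the coding transcript as length. Single libraries left out gave medians of -0.012 to 0.047 and 2 to 6 lower members. The causes were not tested.

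Deviations of same-numbered libraries correlated at 0.157, 0.102, 0.029 and 0.203 in Foxp3-deficient and WT libraries, and at -0.052 to 0.062 in the other 6 of 10 pairs. Not every pair was over 0.1, so the numbers were not taken to pair the libraries. This rule covered all 10 pairs at once, so it does not decide whether Foxp3-deficient and WT libraries were paired. With the replicate number as a block, 3 members were higher in double-deficient against Foxp3-deficient cells, and the members' median against WT was 0.061. The block called 1783, 2756 and 3494 genes in the 3 comparisons, against 1812, 3585 and 4299 without it. With block and trend removal together, 1 member was higher and the median was 0.063 in Foxp3-deficient against WT cells. In double-deficient against Foxp3-deficient cells that fit gave 2041 genes, 2 higher and 1 lower members and a median of 0.061, and against WT 2 lower members and a median of 0.120. Depth limits Asns, Chac1, Atf5 and Pycr1, which had the fewest reads of the 36 genes.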
